A study of Mus musculus with 12 samples.

Results

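The genes Ppargc1a, Ppargc1b and Irf4 encode the coactivators PGC-1α and PGC-1β and the transcription factor IRF4. Their binding sites for the nuclear receptor Rev-Erbα were taken from peak lists of mouse brown adipose tissue, as every peak whose annotated gene was one of these 3. The list made at 4 °C held 10 such sites of 11227 (Ppargc1a 5, Ppargc1b 2, Irf4 3). The list made at 29 °C held 3 of 2183 (Ppargc1a 2, Irf4 1, Ppargc1b 0). The groups were HA-RevErbα mice at 4 °C (4 libraries), HA-RevErbα mice at 29 °C (4 libraries), WT mice at 4 °C (2 libraries) and WT mice at 29 °C (2 libraries). All 12 libraries came from C57BL/6 mice kept for 1 week at the stated temperature, 4 °C being the chronic cold challenge and 29 °C thermoneutrality. Chromatin of all 4 groups was pulled down with anti-HA magnetic beads, so that the WT mice, which carry no HA tag on Rev-Erbα, give the background of the pull-down. The sources used here do not say how the HA-RevErbα allele was made, which promoter drives it or whether a library is 1 animal.

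Rev-Erbα, encoded by Nr1d1, is a receptor that binds DNA and represses transcription through the NCoR corepressor complex, as part of the circadian clock. PGC-1α and PGC-1β do not bind DNA themselves: they dock on nuclear receptors and other factors and raise mitochondrial biogenesis and oxidative metabolism, and in brown fat cAMP signalling in the cold induces Ppargc1a. IRF4 is a DNA-binding factor of the interferon regulatory factor family that acts with PGC-1α in brown fat thermogenesis.

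Aligned reads numbered 32.0 M (mega) ± 3.80 a library (SD, n = 4) for HA-RevErbα mice in the cold and 30.9 M ± 4.68 (SD, n = 4) at thermoneutrality, against 29.2 and 32.6 M for cold WT mice and 27.4 and 36.1 M for thermoneutral WT mice. The binding values are those of 4 pools, made of 63.8 M and 60.8 M reads in HA-RevErbα 4 °C and 29 °C and of 27.1 M and 25.1 M reads in WT 4 °C and 29 °C. The unit, FPKM, is here the reads per kilobase of a 200 bp peak window per M reads of the pool, so it measures density on DNA and not expression, and the tissue label could not be checked against marker genes. With 1 pool a group there is no replicate check and no test between temperatures. Ratios are given with exact 95% intervals that cover counting error only and not the spread between libraries. Reads copied by PCR are not independent molecules, so the intervals may be too narrow even for counting error. A density in whole tissue also cannot tell apart more occupied cells and more binding per cell.

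Ppargc1a is transcribed from the minus strand of chromosome 5 and was annotated with 2 starts 13.8 kb apart, at position 51945160 for NM_008904 and at 51958964 for the upstream transcript NR_132764 (build mm9, as all peak coordinates here). Sites at -28.1 kb (51986970 to 51987170) and -24.0 kb (51982856 to 51983056) lay 4.11 kb apart upstream of the outer start. A site at -0.193 kb (51959057 to 51959257) lay at that start and was the sole site of the 10 annotated as promoter-TSS, a class that took 3.82% of the 4 °C list. The last 2 sites lay far out, at -258 kb (52216946 to 52217146) and at 278 kb downstream of the NM_008904 start (51666735 to 51666935). All but the promoter site were annotated as intergenic. The number of sites was high for a gene: 445 of the 5451 genes with a 4 °C site, or 8.16%, had at least 5. Only 3 of the 5 lay within 50 kb of a start, however, and the region was not crowded. Each of these 3 had 2 other sites within 100 kb and each far site had 0, against a median of 3 over the 4 °C list.

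Since a Rev-Erbα site lay at the NR_132764 start, the 250 bases before the Ppargc1a start in RefSeq (assembly GRCm38.p6, chr5:51567726-51567975, minus strand) are shown, with the cAMP response element core in capitals. RefSeq's table does not name the transcript, so which of the 2 starts it belongs to is not given.
Ppargc1a promoter: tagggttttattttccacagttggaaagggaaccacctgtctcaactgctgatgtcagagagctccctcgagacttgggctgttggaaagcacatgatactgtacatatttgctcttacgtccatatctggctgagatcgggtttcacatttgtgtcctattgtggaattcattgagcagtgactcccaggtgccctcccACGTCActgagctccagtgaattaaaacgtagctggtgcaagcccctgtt
Both strands were searched for the core of the element bound by CREB-type factors, TGACGT. They were also searched for the core bound by REV-ERB and other nuclear receptors, AGGTCA. The capitals mark the sole match of TGACGT, which reads ACGTCA here because it lies on the other strand, beginning 50 bases before the start. Of 32851 mouse promoters of this length, 2125 or 6.47% held TGACGT. The REV-ERB core was not among these 250 bases, while 14.0% of the promoters held it. The peak window reached from -293 to -93 bases of the NR_132764 start. Even if the sequence belongs to that start, the marked match lies outside this window. The part of the window beyond the 250 bases was not searched, so neither search describes the whole bound window.

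The 2 neighbouring upstream sites held most of the HA-RevErbα reads of Ppargc1a, and the split of reads between them differed between the temperatures. The site at -28.1 kb had 14.05 FPKM in HA-RevErbα 4 °C and 3.63 in HA-RevErbα 29 °C, against 2.96 in WT 4 °C and 1.60 in WT 29 °C. The site at -24.0 kb had 11.69 FPKM in HA-RevErbα 4 °C and 7.58 in HA-RevErbα 29 °C, against 1.85 in WT 4 °C and 1.41 in WT 29 °C. The outer site thus had the higher value of the 2 in the cold and the lower at thermoneutrality. Its 4 °C over 29 °C ratio of HA-RevErbα reads was 3.88 (2.78 to 5.53), and that of the -24.0 kb site was 1.54 (1.18 to 2.02), with intervals that do not overlap. Of the HA-RevErbα reads in both windows, the -28.1 kb site held 54.6% at 4 °C (95% exact interval 49.0 to 60.1) and 32.4% at 29 °C (24.6 to 40.9). Neither share depends on how the pools are scaled. In the windows of the 29 °C list the share was 56.5% (50.8 to 62.1) at 4 °C and 35.3% (27.7 to 43.4) at 29 °C. The interval of the 4 °C share includes an even split in the 4 °C windows and lies just above it in the 29 °C windows. The lead of the outer site in the cold is therefore uncertain, unlike the change of its share. Of the reads of all 5 sites, the -28.1 kb site held 37.1% at 4 °C and 20.2% at 29 °C and the -24.0 kb site 30.8% and 42.2%, with no overlap of intervals in either pair. Among WT reads in both windows the outer site held 16 of 26 at 4 °C, or 61.5%, and 8 of 15 at 29 °C, or 53.3%, which are too few to tell shares apart.

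**Figure D1:**
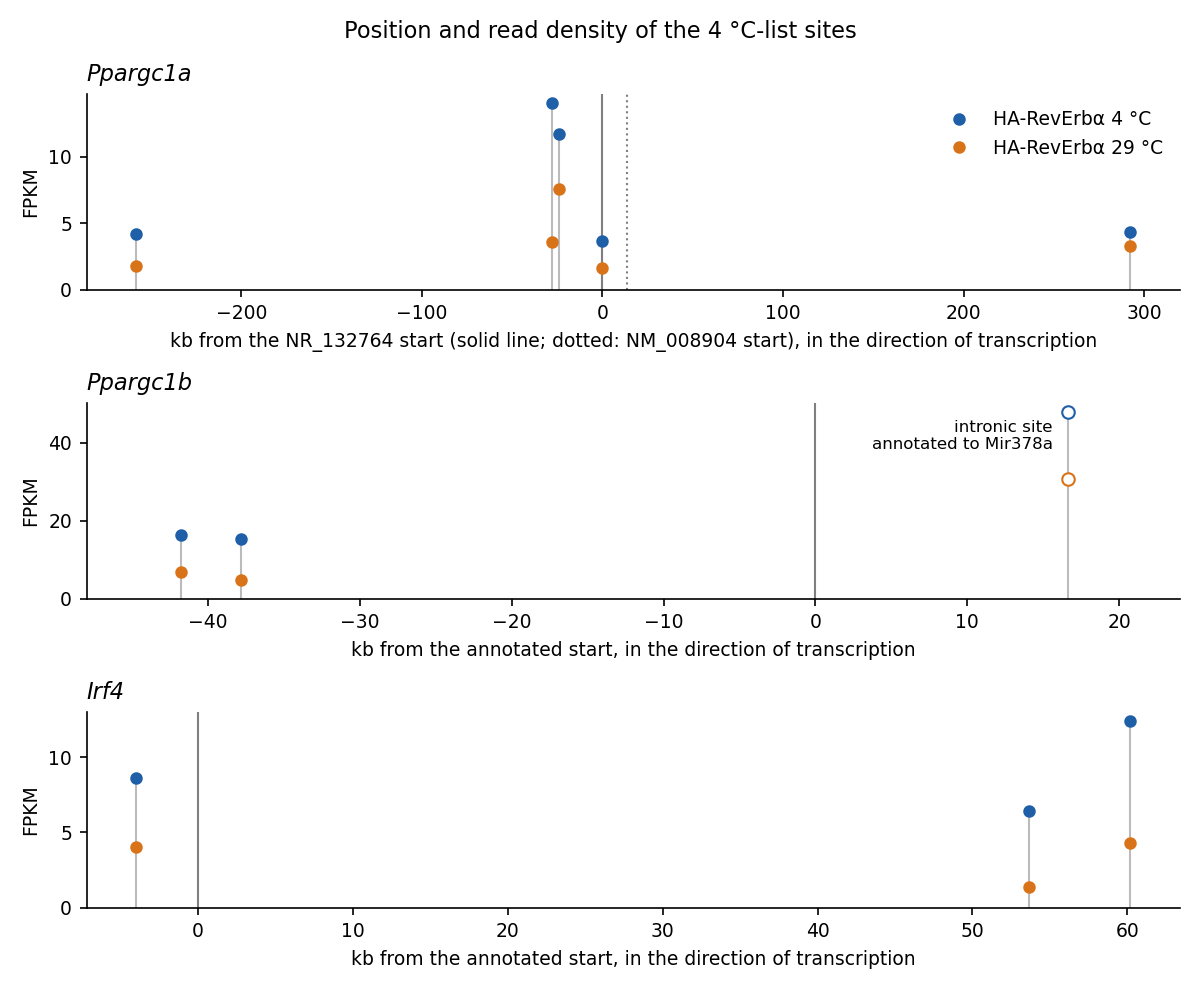
Read density (FPKM) of the HA-RevErbα pools at 4 °C and 29 °C against distance from the gene start in kb, for the 4 °C-list sites of each gene; open circles are the Ppargc1b intronic site annotated to Mir378a. At Ppargc1a the outer of the 2 neighbouring sites has the higher value at 4 °C (14.05 against 11.69 FPKM) and the lower at 29 °C (3.63 against 7.58 FPKM). Its lead at 4 °C in these windows is within counting error.

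Both of these sites were also in the 29 °C list. The -24.0 kb peak there (51982816 to 51983016) scored 16.3, the score in the authors' lists being the number of reads in the window per 10 M of the pool, and its own window had 8.15 FPKM in HA-RevErbα 29 °C against 1.21 in WT 29 °C. The peak beside the -28.1 kb site (51987024 to 51987224) scored 8.88, with 4.45 FPKM in HA-RevErbα 29 °C against 0.81 in WT 29 °C, a value that rests on 4 WT reads. Read in the 4 °C window instead, the HA-RevErbα signal there was 2.27 times WT at 29 °C (1.06 to 5.58), short of the lowest fold of the lists, about 4. In the 29 °C windows the 4 °C over 29 °C ratio was 3.07 (2.25 to 4.25) at this site and 1.29 (0.988 to 1.69) at the -24.0 kb site. The WT reads in the window beside -28.1 kb had a ratio of 3.24 (1.02 to 13.5), and in the 4 °C window 1.85 (0.747 to 4.99). With WT subtracted in the 4 °C windows, the HA-RevErbα ratio was 5.46 at -28.1 kb and 1.59 at -24.0 kb, values without intervals. Beyond this, the part of the WT reads in the HA-RevErbα ratio was not tested.

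The promoter site and the far sites of Ppargc1a were weak. The promoter site had 3.70 FPKM in HA-RevErbα 4 °C and 1.65 in HA-RevErbα 29 °C, against 0.38 in WT 4 °C and 0.81 in WT 29 °C. Its ratio of 4 °C over 29 °C was 2.24 (1.30 to 3.99), and at 29 °C its signal over WT could not be told from 1 (2.06, 0.691 to 8.30). Only 2.97% of the 4 °C list scored lower than its 7.37. The -258 kb site had 4.17 FPKM in HA-RevErbα 4 °C and 1.82 in HA-RevErbα 29 °C, against 0.38 in WT 4 °C and 0.61 in WT 29 °C, a ratio of 2.30 (1.37 to 3.97). The site at 278 kb had 4.32 FPKM in HA-RevErbα 4 °C and 3.30 in HA-RevErbα 29 °C, against 0.75 in WT 4 °C and 0.61 in WT 29 °C. Of the 10 sites it alone had a temperature ratio whose interval included 1 (1.31, 0.857 to 2.02). It was 5.50 times WT at 29 °C (1.75 to 27.8) and fell short of the lists' limit of 3 FPKM over WT, and of that limit alone.

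Ppargc1b, on the minus strand of chromosome 18 with its start at position 61560085 (NM_133249), had the 2 sites with the highest density in the HA-RevErbα 4 °C pool among the 10. Both its sites were intergenic and upstream, at -41.8 kb (61601768 to 61601968) and -37.9 kb (61597842 to 61598042), 3.93 kb apart. The -41.8 kb site had 16.40 FPKM in HA-RevErbα 4 °C and 7.0 in HA-RevErbα 29 °C, against 2.22 in WT 4 °C and 2.80 in WT 29 °C. The -37.9 kb site had 15.46 FPKM in HA-RevErbα 4 °C and 4.78 in HA-RevErbα 29 °C, against 1.67 in WT 4 °C and 2.60 in WT 29 °C. Their scores of 32.8 and 30.9 stood above 92.7% and 91.4% of the 4 °C list. The ratios of 4 °C over 29 °C were 2.34 (1.81 to 3.05) and 3.24 (2.41 to 4.42), with intervals that overlap. The split of the reads between these sites likewise could not be told apart, with 51.5% at -41.8 kb in HA-RevErbα 4 °C (46.5 to 56.4) and 59.4% in HA-RevErbα 29 °C (50.9 to 67.6).

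Neither Ppargc1b site was in the 29 °C list. At -41.8 kb HA-RevErbα was 2.51 times WT at 29 °C (1.41 to 4.78) and 4.20 FPKM above it, so that the site fell short of the fold limit alone. At -37.9 kb the fold was 1.84 (0.997 to 3.66), which could not be told from 1. The WT pool of 29 °C was as high here as at any of the 10 sites, at 2.80 and 2.60 FPKM where the range was 0.61 to 2.80.

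A further site inside Ppargc1b carried another gene's name. It lay in intron 1 of NM_133249, 16.7 kb downstream of the start (chromosome 18, 61543334 to 61543534), and was annotated to Mir378a, a microRNA gene hosted by that intron. It was singled out after its values were seen. Its 47.92 FPKM in HA-RevErbα 4 °C and 30.77 in HA-RevErbα 29 °C stood against 2.59 in WT 4 °C and 3.0 in WT 29 °C. With a score of 95.8 it ranked 22 of 11227 in the 4 °C list and 1 of the 387 sites on its chromosome. In the 29 °C list its peak (61543345 to 61543545) scored 61.7 and ranked 21 of 2183. The ratio of 4 °C over 29 °C, 1.56 (1.37 to 1.78), lay below those of both upstream sites, whose intervals do not reach it. Such a contrast ran through the 4 °C list: sites shared with the 29 °C list had a median ratio of 1.88 and the others 3.28. The Mir378a site was shared and the 2 upstream sites were not. Counted with the 2 upstream sites, it took the summed ratio of Ppargc1b to 1.88 (1.69 to 2.09), against 2.71 (2.23 to 3.30) without it.

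The neighbourhood of Ppargc1b was dense in sites. Within 100 kb of its 2 sites lay 14 sites of the 4 °C list: 6 of A530050N04Rik, which RefSeq names Lncbate10, a long noncoding RNA gene known from brown fat, 5 of Arhgef37, a gene for a guanine nucleotide exchange factor, the Mir378a site and the 2 themselves. Each Ppargc1b site thus had 13 others within 100 kb, as many as 0.784% of all 4 °C sites, whose median was 3. The Lncbate10 sites had ratios of 1.84 to 4.34, and 1 of the 6 was shared with the 29 °C list. Those of Arhgef37 had ratios of 1.76 to 3.90, and 4 of the 5 were shared. Around Ppargc1a and Irf4 no other gene had a site within 100 kb.

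Irf4 lies on the plus strand of chromosome 13, with both annotated transcripts starting at position 30841102. Of its 3 sites, all intergenic, 1 lay at -3.98 kb (30837026 to 30837226) and 2 lay downstream at 53.6 kb (30894651 to 30894851) and 60.2 kb (30901179 to 30901379), 6.53 kb apart. The 60.2 kb site was the strongest, with 12.40 FPKM in HA-RevErbα 4 °C and 4.29 in HA-RevErbα 29 °C, against 2.41 in WT 4 °C and 1.01 in WT 29 °C. The upstream site had 8.64 FPKM in HA-RevErbα 4 °C and 4.04 in HA-RevErbα 29 °C, against 1.85 in WT 4 °C and 1.21 in WT 29 °C. The 53.6 kb site had 6.44 FPKM in HA-RevErbα 4 °C and 1.41 in HA-RevErbα 29 °C, against 1.48 in WT 4 °C and 1.01 in WT 29 °C. At 29 °C the signal of this last site over WT could not be told from 1 (1.40, 0.497 to 4.86, on 17 HA-RevErbα and 5 WT reads). Its ratio of 4 °C over 29 °C, 4.60 (2.70 to 8.27), was the highest of the 10 and rests on 82 and 17 reads. The ratios of the other two sites were 2.14 (1.52 to 3.06) at -3.98 kb and 2.90 (2.11 to 4.04) at 60.2 kb. All 3 intervals overlap, which does not show that the ratios are alike, and differences between these sites were not tested. The shares of the gene's reads in HA-RevErbα 4 °C and 29 °C were 31.4% and 41.5% at -3.98 kb, 23.4% and 14.4% at 53.6 kb, and 45.1% and 44.1% at 60.2 kb. The intervals of each pair overlap, which again does not show that the shares are alike.

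The 60.2 kb site was the Irf4 site of the 29 °C list (30901208 to 30901408, score 9.05). That window held 12.40 FPKM in HA-RevErbα 4 °C and 4.53 in HA-RevErbα 29 °C, against 2.04 in WT 4 °C and 0.61 in WT 29 °C, a ratio of 2.74 (2.0 to 3.79). Its fold over WT at 29 °C, 7.57, rests on 3 WT reads and has an interval of 2.46 to 37.8. In the window of the 4 °C list the fold was 4.29 (1.73 to 13.8).

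**Figure D2:**
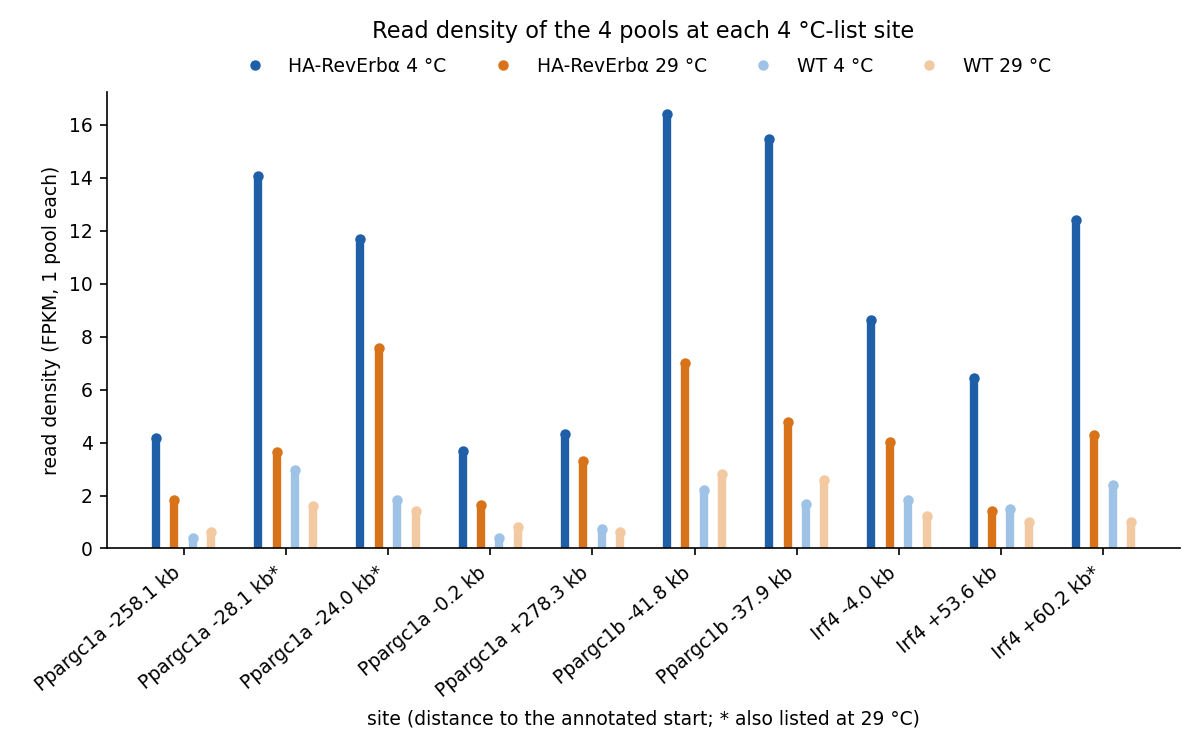
Read density (FPKM) at each of the 10 sites of the 4 °C list in the HA-RevErbα pools of 4 °C and 29 °C and the WT pools of the same temperatures, 1 value a pool, with no error bars because libraries were pooled. HA-RevErbα at 4 °C is the highest bar at every site, from 3.70 FPKM at the Ppargc1a promoter to 16.40 FPKM at the -41.8 kb Ppargc1b site; at the 53.6 kb Irf4 site the HA-RevErbα 29 °C value (1.41 FPKM) is close to both WT values.

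Summed over the 4 °C-list sites of a gene, HA-RevErbα reads were denser at 4 °C for each of the 3 genes. These windows were listed for their signal at 4 °C, which favours that direction. The sums for Ppargc1a were 37.93 FPKM in HA-RevErbα 4 °C and 17.98 in HA-RevErbα 29 °C, against 6.32 in WT 4 °C and 5.04 in WT 29 °C, a ratio of 2.11 (1.80 to 2.49). For Ppargc1b they were 31.86 FPKM in HA-RevErbα 4 °C and 11.78 in HA-RevErbα 29 °C, against 3.89 in WT 4 °C and 5.40 in WT 29 °C, a ratio of 2.71 (2.23 to 3.30). For Irf4 they were 27.48 FPKM in HA-RevErbα 4 °C and 9.74 in HA-RevErbα 29 °C, against 5.74 in WT 4 °C and 3.23 in WT 29 °C, a ratio of 2.83 (2.29 to 3.51). The 3 intervals overlap pairwise, which does not show that the ratios are alike, and differences between the genes were not tested. The WT ratios of 4 °C over 29 °C were 1.26 (0.729 to 2.20) at Ppargc1a, 0.719 (0.387 to 1.32) at Ppargc1b and 1.79 (0.95 to 3.51) at Irf4, all including 1.

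Such ratios were common in the 4 °C list as a whole. A ratio of at least 2 was seen at 8 of the 10 sites, against 83.4% of all windows of the list, and a counting interval above 1 at 9 of 10, against 95.4%. The median ratio of the 10 sites was 2.32 (1.31 to 4.60), below the list's median of 3.05. In the windows of the 29 °C list 2 of the 3 sites had a ratio of at least 2, against 31.5% of that list, and 2 of 3 an interval above 1, against 66.8%. Their median was 2.74 and that of the 29 °C list 1.64. Being listed at a temperature required signal there, which raises ratios in the 4 °C windows and lowers them in those of the 29 °C list. Scaled by the WT reads over the 29 °C windows, which divides every ratio by 1.71, 2 sites kept a ratio of at least 2 and 5 an interval above 1. The -24.0 kb site of Ppargc1a then came to 0.905 (0.693 to 1.19) and the site at 278 kb to 0.768 (0.502 to 1.19). Both intervals include 1.

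**Figure D3:**
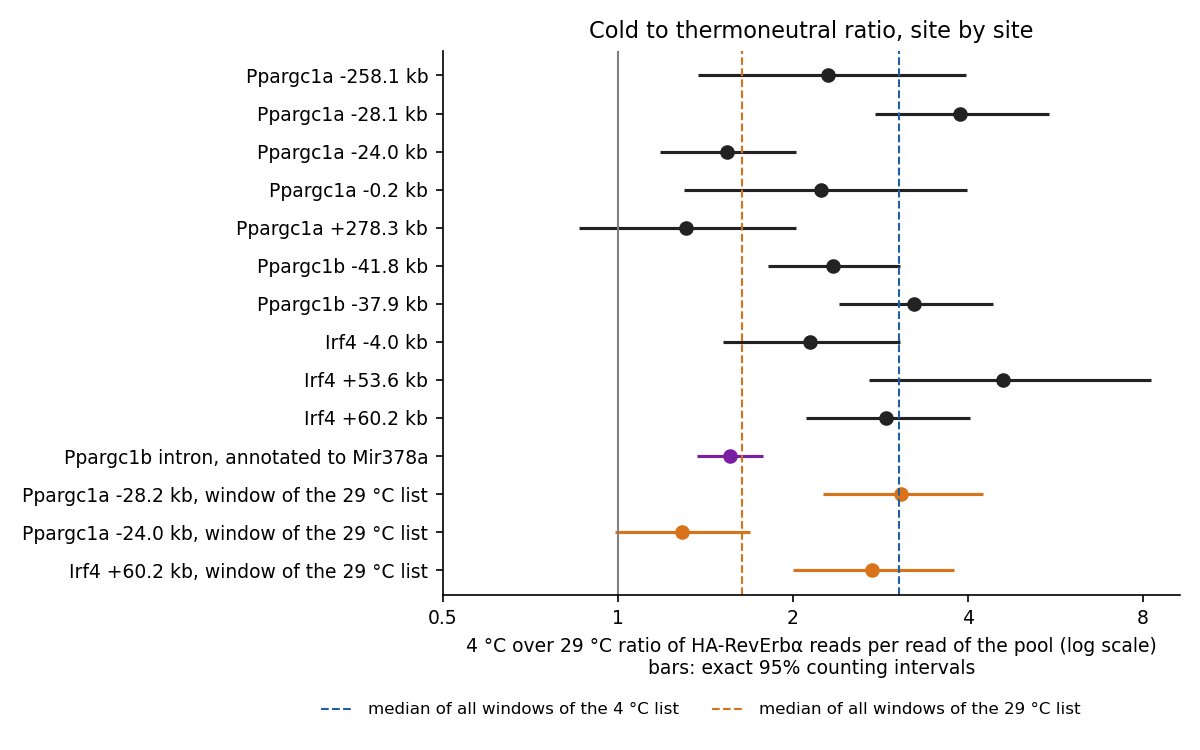
Ratio of 4 °C over 29 °C HA-RevErbα reads per read of the pool (log scale) at each site, with exact 95% counting intervals; black points are windows of the 4 °C list, orange points windows of the 29 °C list and the purple point the Ppargc1b intronic site annotated to Mir378a. In the windows of the 4 °C list the 10 sites run from 1.31 to 4.60, and their median of 2.32 lies below that of the list (3.05). The interval of the -28.1 kb Ppargc1a site does not overlap that of the -24.0 kb site in the windows of either list.

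At 29 °C the sites split into those listed there and those that were not. Of the 10 windows, 3 overlapped a 29 °C peak, against 14.9% of the 4 °C list, and 2 (Ppargc1a at -24.0 kb and Irf4 at 60.2 kb) reached both limits over WT at 29 °C in their 4 °C window, against 13.6%. A further 6 fell short of both limits. A counting interval of HA-RevErbα over WT above 1 at 29 °C was found at 6 of the 10, against 41.5% of the list. By position, 9 of the 10 sites were intergenic, against 44.3% of the list. Scores ran both sides of the list's median of 14.1, with 6 of 10 above it.

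**Figure D4:**
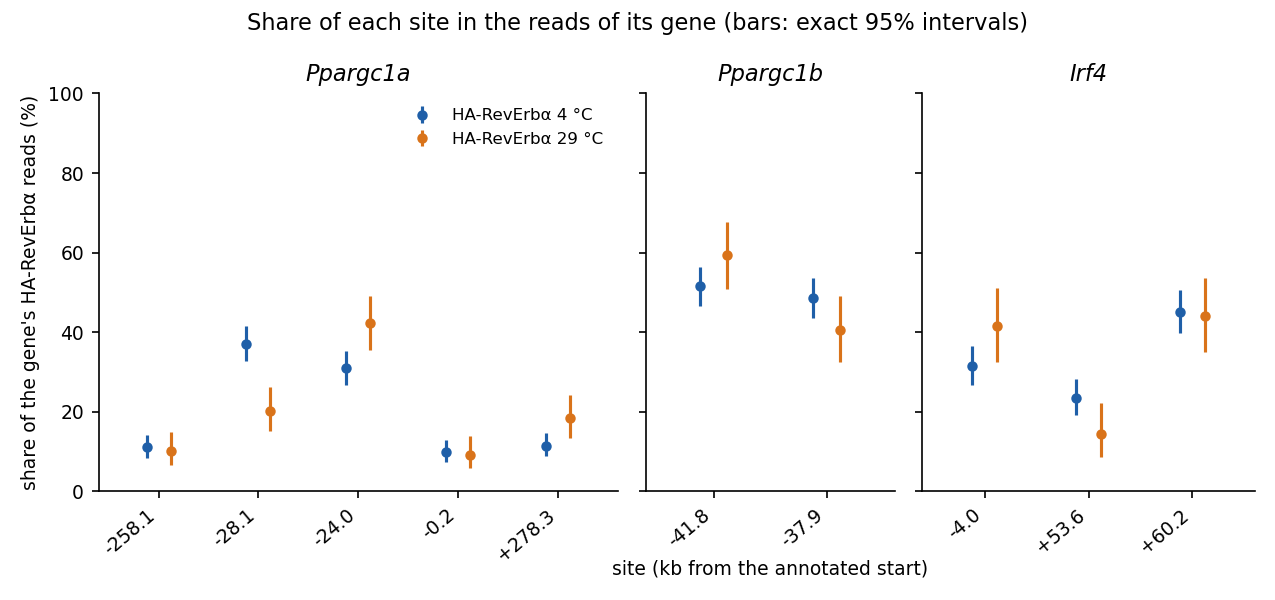
Share (%) of each gene's HA-RevErbα reads held by each of its 4 °C-list sites, at 4 °C and at 29 °C, with exact 95% intervals. At Ppargc1a the -28.1 kb site holds 37.1% at 4 °C and 20.2% at 29 °C and the -24.0 kb site 30.8% and 42.2%. At Ppargc1b and Irf4 the intervals of each pair overlap, which does not show that the shares are alike.

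Genes of the same pathway were read from 4 lists of 95 genes, each gene represented by its highest-scoring 4 °C site. As background, 21.8% of 21031 protein-coding genes had a 4 °C site and 6.3% a 29 °C site, 82.3% of the 4587 genes with a 4 °C site had a ratio of at least 2 and 95.7% an interval above 1, and their median ratio was 3.04. Of 29 genes for the remaining PGC-1 family member and for transcription factors that PGC-1 proteins dock on or act with, 15 had a site at 4 °C and 8 at 29 °C. Of these 15, 13 had a ratio of at least 2 and 14 an interval above 1, with a median of 3.26 (1.10 to 5.24). No site was annotated to Pprc1, the family member of this list, to Esrra, which encodes the main estrogen-related receptor partner of PGC-1α, or to Prdm16, a brown fat cofactor gene. The other estrogen-related receptor genes of the list did have 4 °C sites.

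The partner genes differed widely in their ratios. Thra, the thyroid hormone receptor α gene that overlaps Nr1d1, led with 35.77 FPKM in HA-RevErbα 4 °C and 22.05 in HA-RevErbα 29 °C, a ratio of 1.62 (1.39 to 1.89). Pparg, the master regulator gene of fat cell differentiation, had 17.26 FPKM in HA-RevErbα 4 °C and 3.30 in HA-RevErbα 29 °C in its first intron, a ratio of 5.24 (3.73 to 7.54). Thrb, for thyroid hormone receptor β, and Foxo1, for an insulin-regulated forkhead factor, had ratios of 5.15 and 4.96. Foxo3, Rxra, Nr4a1, Nrf1 and Ppard lay between 2.22 and 2.67. Mef2a, for a MADS-box factor, was the exception, with 10.60 FPKM in HA-RevErbα 4 °C and 9.63 in HA-RevErbα 29 °C, a ratio of 1.10 (0.853 to 1.42).

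Cofactors and enzymes that act on PGC-1 proteins had a 4 °C site at 12 of 30 genes and a 29 °C site at 4. Of the 12, 10 had a ratio of at least 2 and all 12 an interval above 1, with a median of 3.75 (1.58 to 6.96). Nrip1, for the corepressor RIP140, had the highest density, with 34.12 FPKM in HA-RevErbα 4 °C and 21.56 in HA-RevErbα 29 °C, and the lowest ratio, 1.58. Lpin1, whose product lipin 1 coactivates with PGC-1α in liver, had 13.18 FPKM in HA-RevErbα 4 °C and 1.90 in HA-RevErbα 29 °C, where WT had 1.60, and the highest ratio, 6.96 (4.49 to 11.3). The kinase genes Akt2 and Akt1 had ratios of 1.78 and 3.57, the coactivator genes Ncoa1 and Ncoa3 3.95 and 2.65, and Crtc1, for a CREB coactivator, 2.48.

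Genes of mitochondrial function had a 4 °C site at 4 of 25, or 16.0%, and a 29 °C site at 1. Each of the 4 had a ratio of at least 2 and an interval above 1, with a median of 3.17 (2.15 to 5.42). They were Idh3a (3.30) and Cs (2.15), genes of the citric acid cycle, Cox4i1 (3.04), for a subunit of cytochrome c oxidase, and Mfn2 (5.42), for a protein of mitochondrial fusion. Sod2, the mitochondrial superoxide dismutase gene, had a site at 29 °C and none at 4 °C, and no site was annotated to Tfam, the gene of the main activator of mitochondrial DNA transcription.

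**Figure D5:**
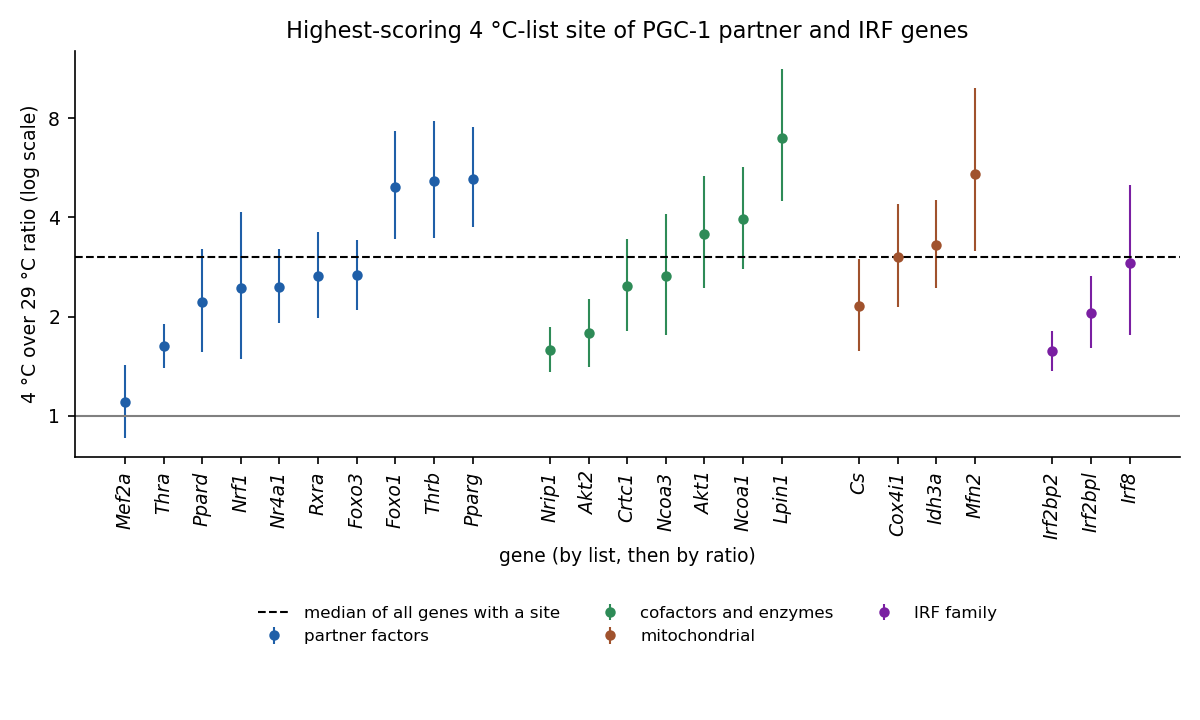
Ratio of 4 °C over 29 °C HA-RevErbα reads (log scale), with exact 95% counting intervals, at the highest-scoring 4 °C site of the genes named here from the lists of partner factors, cofactors and enzymes, mitochondrial genes and the IRF family; the dashed line is the median over all genes with a site (3.04). Points run from 1.10 at Mef2a to 6.96 at Lpin1, and Mef2a is the gene whose interval includes 1.

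In the IRF family and its binding proteins, apart from Irf4, 3 of 11 genes had a 4 °C site and 2 a 29 °C site. Of the 3, 2 had a ratio of at least 2 and all 3 an interval above 1. Irf2bp2, for an IRF2-binding corepressor, had 11 sites at 4 °C and 4 at 29 °C, the highest with 42.75 FPKM in HA-RevErbα 4 °C and 27.23 in HA-RevErbα 29 °C (ratio 1.57). Irf2bpl had 7 sites at 4 °C and 2 at 29 °C (ratio 2.06 at the highest). Irf8, the family member closest to Irf4, had 5.03 FPKM in HA-RevErbα 4 °C and 1.74 in HA-RevErbα 29 °C (ratio 2.91). Irf1, Irf2, Irf3, Irf5, Irf7, Irf9 and Irf2bp1 had none.

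Genes with the most similar values were sought by Euclidean distance over log2(FPKM + 0.5) of the 4 pools at each gene's highest-scoring 4 °C site, among 5450 genes. Nearest to Ppargc1a were Piezo1, Cav2 and Lrrn4, at distances of 0.16, 0.17 and 0.18. Ppargc1b had E030018B13Rik (0.09), Kctd7 (0.22) and Wipi2 (0.22) nearest, and Irf4 had Mir6387 (0.07), Dyrk1a (0.12) and Lama4 (0.15). With 0.1 in place of 0.5 FPKM added, Eng took the place of Lrrn4. The distances take no account of counting error. Since 1 read makes 0.184 FPKM in WT 4 °C and 0.199 in WT 29 °C, single WT reads could reorder genes this close.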

How the data were processed

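Libraries of anti-HA pull-downs (ChIP-seq) were grouped by genotype and temperature from the labels. Per the submitters' processing notes, Bowtie2 2.1.0, HOMER 4.10 and build mm9 were used. The sources used here give neither their roles nor the peak-calling settings. The deposited files are 1 aligner log a library, with other values such as read numbers, and 2 peak lists made on pooled libraries, per the file headers. In the authors' files FPKM is the number of reads per kilobase of the 200 bp window, scaled to M (mega) reads in its pool, plus 0.01. The peak score in the authors' files is reads per 10 M reads. All listed peaks exceed WT by 3 FPKM or more and reach 4 times WT within rounding. Whether starts count from 0 or 1 is not given.

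Whole reads were recovered from the FPKM steps (100% of values within 0.01 FPKM), which gave pool sizes of 49.8% and 49.2% of the aligned reads in HA-RevErbα 4 °C and 29 °C and 43.9% and 39.5% in WT 4 °C and 29 °C. In these 4 pools, in that order, 3 reads make 0.235, 0.247, 0.553 and 0.598 FPKM. Ratios of reads per read of the pool have exact Clopper-Pearson intervals at 95% (Python 3.11.15, scipy 1.17.1), checked on simulated data. Sites overlapping by at least 1 bp are shared. A gene's distance to a site, its name and class are the authors' annotation.

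The members, gene lists and rules were chosen with earlier results of these data known. Besides all member sites, the text names up to 6 genes with a site per list by score, those with a 29 °C site, the 3 genes nearest to each member, and genes without a site as examples. Some genes of the lists are counted but not reported by name here. All 95 IDs of listed genes matched RefSeq (GRCm38.p6), which was used for names and the promoter. It held 1 promoter for Ppargc1a, 1 for Irf4 and 0 for Ppargc1b. Alternatives changed the scaling, background, distance, window, limits and overlap.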

Additional observations from a re-analysis of the deposited data

Results flagged for a closer look

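The site in an intron of Ppargc1b that is annotated to Mir378a was not among the sites chosen by gene name, and its signal stood far above background: HA-RevErbα reads were 18.6 times those of WT at 4 °C (11.0 to 34.2) and 10.3 times at 29 °C (6.16 to 18.6). No library depth in the HA-RevErbα groups stood apart from its group. The WT groups, with 2 libraries each, could not be checked in this way. In WT 4 °C, 7.37% of the reads of replicate 1 did not align, against 2.88% in replicate 2. The next highest value of any library was 4.42%, in HA-RevErbα 4 °C.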

How the results depend on the processing

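Binding values exist per pool only, so leaving out a library could not be run for them. No paired analysis was possible because only the WT libraries share replicate numbers and all binding values are pools. Dividing by the WT factor of shared windows (1.44) gave summed ratios of 1.47 for Ppargc1a, 1.88 for Ppargc1b and 1.96 for Irf4, and 4 sites with a ratio of at least 2. The factor of the 29 °C windows (1.71) gave 1.24, 1.59 and 1.66, with 2 such sites and 5 sites with an interval above 1. By this factor the -24.0 kb site of Ppargc1a came to 0.905 (0.693 to 1.19), which could not be told from 1. With WT subtracted Ppargc1b came to 4.38, and with the Mir378a site added to 1.88, an alternative chosen after seeing the data. Within 50 kb of the start Irf4 came to 2.14, with 1 site at 4 °C and 0 at 29 °C, and Ppargc1a had 3 sites at 4 °C. At 5 FPKM over WT Ppargc1a had 2 sites at 4 °C and 1 at 29 °C, and Irf4 had 0 at 29 °C. At 6 times WT Ppargc1a had 3 and 1, and Irf4 had 0 at 4 °C. By a limit of 2 times WT with an interval above 1, 6 windows were over WT at 29 °C. Within 50 kb, 29 °C sites were found at 5 partner factors and 2 cofactors. The other 35 alternatives of these main results moved none beyond its counting interval, 1 SD or 1.5 times. Alternatives were also run for single sites, mean library depths and nearest genes. Of these, 17 moved the value, 1 took a ratio to the other side of 1, and 50 did neither. Among those 50 were the nearest genes of Ppargc1a, of which 2 of 3 were shared.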
